A study of Mus musculus with 18 samples.

Results

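Serine and selenocysteine transfer RNAs (tRNAs) were followed through small RNA libraries of sorted mouse brain cells. A member was any tRNA gene in the count table whose identifier began with tRNA-Ser or tRNA-SeC, which gave 23 genes of 407, 22 for serine and 1 for selenocysteine. Counts of genes with the same isodecoder number (tRNAs that share an anticodon but differ elsewhere, as numbered in the table) were summed, which left 15 isodecoders of 218, and isodecoders with the same anticodon were summed again, which left 6 anticodons of 51. The mice were 10 months old. Wild-type (WT) mice carried the normal Atxn2 gene, and KIN mice (Atxn2-CAG100-KIN) carried on both chromosomes a knock-in of an expanded CAG repeat in that gene, which models spinocerebellar ataxia type 2. As the study's methods describe, both genotypes came from heterozygous matings on the C57BL/6 background and were taken as littermates, and microglia (CD11b), then astrocytes (ACSA-2) and then neurons (the unbound rest) were collected with magnetic beads from each brain. The 18 libraries fell into 6 groups of 3, namely astrocytes, microglia and neurons of each genotype. No promoter or Cre that limits the knock-in to a cell type was described.

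Serine tRNAs read the serine codons through different anticodons: GCT reads the AGC and AGT codons, while AGA, CGA and TGA read codons that begin with TC. All of them are charged by seryl-tRNA synthetase, which recognises the long variable arm that serine, selenocysteine and leucine tRNAs share. The selenocysteine tRNA is first charged with serine as well, and its serine is then converted to selenocysteine, which the ribosome inserts at recoded TGA stop codons of selenoproteins such as the glutathione peroxidases.

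The sequences below are those on which the separation of the members rests, and they show the gene as found by its tRNA structure in the GRCm39 genome, with the anticodon in capitals. The selenocysteine gene is single and 87 bases long, the AGA-2 and TGA-2 isodecoders are printed because reads of one can fit the other, and the 5 GCT sequences because their proportions differed between cell types.
tRNA-SeC-TCA-1, chr7:19035169-19035255, plus strand: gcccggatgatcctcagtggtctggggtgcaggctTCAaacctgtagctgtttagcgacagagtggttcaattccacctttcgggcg
tRNA-Ser-AGA-2, 6 genes, 1 of them at chr11:68928303-68928384, plus strand: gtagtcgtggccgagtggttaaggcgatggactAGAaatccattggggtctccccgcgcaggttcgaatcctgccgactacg
tRNA-Ser-TGA-2, 2 genes, 1 of them at chr13:22109105-22109186, minus strand: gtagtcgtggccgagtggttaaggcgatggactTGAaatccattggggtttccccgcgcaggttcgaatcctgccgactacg
tRNA-Ser-GCT-4, 3 genes, 1 of them at chr11:68953868-68953949, minus strand: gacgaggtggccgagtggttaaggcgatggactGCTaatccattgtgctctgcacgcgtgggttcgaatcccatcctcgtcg
tRNA-Ser-GCT at chr19:5088332-5088413, minus strand: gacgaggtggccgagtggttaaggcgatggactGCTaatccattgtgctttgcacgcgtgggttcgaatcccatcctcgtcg
tRNA-Ser-GCT at chr2:118877231-118877312, minus strand: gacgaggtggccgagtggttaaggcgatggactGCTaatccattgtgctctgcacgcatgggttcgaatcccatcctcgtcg
tRNA-Ser-GCT at chr13:22178360-22178441, minus strand: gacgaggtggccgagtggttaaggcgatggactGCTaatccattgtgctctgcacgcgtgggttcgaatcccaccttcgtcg
tRNA-Ser-GCT at chr13:21677015-21677096, minus strand: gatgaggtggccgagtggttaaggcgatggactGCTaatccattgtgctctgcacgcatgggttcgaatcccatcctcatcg

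With positions counted from 1 at the 5′ end, AGA-2 and TGA-2 differed by A34T and C50T only, so the first 33 bases were the same although the anticodons were not. A single AGA gene (chr13:22121264-22121345, minus strand) differed from TGA-2 by A34T alone. The 3-gene sequence GCT-4 differed from the chr19 gene by T50C, from the chr2 gene by A58G, and from the 2 single chr13 genes by C74T and T76C or by T3C, A58G and A79G, the single gene's base being written first. The table gave the isodecoder numbers without sequences, so only sequences with a copy number of their own could be given a number, and the single GCT genes could not be told apart as GCT-1, GCT-2, GCT-3 or GCT-5. The selenocysteine gene overlapped no annotated gene and lay 1366 bases from Fosb, the nearest protein-coding gene. Of the single GCT genes, the chr2 gene lay in an exon of the long noncoding RNA Gm74700, the chr19 gene in an intron of the long noncoding RNA Gm30581, and both chr13 genes outside any annotated gene. Of the 3 CGA genes, 1 lay in an annotated exon of Per1 (chr11:69001745-69001826, plus strand), a gene of the circadian clock, 1 lay 10 bases from Smarcc2 (chr10:128294333-128294414, minus strand) and 1 lay on chromosome 13 (chr13:22206589-22206670, minus strand).

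Library totals were 1211118 to 4316748 counts, and the neuron libraries were the shallowest. The 3 microglial marker miRNAs (miR-142a-3p, miR-142a-5p and miR-223-3p) summed to 2835 to 5914 counts-per-million of the library total (CPM) in microglia, against 10.2 to 48.5 CPM in astrocytes and 42.9 to 377 CPM in neurons. The 3 neuronal miRNAs (miR-124-3p, miR-128-3p and miR-138-5p) were detected in all neuron libraries but summed to 48.7 to 228 CPM there, below the 1036 to 3150 CPM of the astrocyte libraries, so the neuron label was not borne out by these markers and is used here as the name of the fraction. Replicate 2 of WT neurons stood apart: cytosolic tRNA made up 10.6% of its counts against 2.94% to 5.88% in the other 5 neuron libraries, and the oligodendrocyte miRNAs miR-219a-2-3p and miR-338-3p summed to 74.1 CPM against at most 5.97 CPM. The study describes pairs of a KIN and a WT mouse of the same sex, 2 pairs male and 1 female. The labels give neither the mouse nor the sex of a library, so p-values measure the spread between these samples. Xist, which is expressed from the inactive X chromosome, had 33, 102 and 25 counts in WT and 5, 47 and 83 in KIN astrocytes, 37, 36 and 41 in WT and 4, 44 and 61 in KIN microglia, and 12, 50 and 12 in WT and 5, 56 and 88 in KIN neurons. Kdm5d, a Y-linked gene, had 13, 5 and 8 counts in WT and 1, 4 and 3 in KIN astrocytes. It had 6, 0 and 8 in WT and 1, 0 and 1 in KIN microglia, and 3, 1 and 3 in WT and 3, 2 and 4 in KIN neurons. Ddx3y, also Y-linked, had 4, 0 and 2 in WT and 1, 0 and 0 in KIN astrocytes. It had 2, 0 and 1 in WT and 7, 1 and 1 in KIN microglia, and 2, 0 and 2 in WT and 7, 1 and 0 in KIN neurons. The other listed Y-linked genes, Eif2s3y and Uty, had at most 9 counts in any library. Xist was thus lowest in KIN replicate 1 of every fraction and highest in WT replicate 2 among WT neurons and WT astrocytes, but it did not set replicate 2 of WT microglia apart. In KIN it had 44 to 88 counts in replicates 2 and 3 of every fraction and at most 5 in replicate 1. These counts alone do not show whether the sexes were balanced between the genotypes. Kdm5d was lowest in replicate 2 of every WT fraction. Among KIN libraries it was not highest in replicate 1 of astrocytes or neurons, and in microglia replicates 1 and 3 were tied. Ddx3y was at 0 in replicate 2 of every WT fraction and highest in KIN replicate 1 of every fraction. Results below turn on replicate 2 of WT microglia and of WT neurons. The Y-linked counts were low, no library was assigned a sex, and the part of sex in those results was not tested. In sorted bulk samples, fewer cells of a type and less RNA per cell cannot be told apart.

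Serine tRNA was abundant in glia and scarce in most neuron libraries, and KIN microglia held the highest level. As CPM of the library total, the serine sum was 9154, 9395 and 7944 in WT astrocytes (mean 8831 ± 778, SD, n = 3) and 8515, 9283 and 9204 in KIN astrocytes (9001 ± 423). It was 4790.3, 8481 and 4526 in WT microglia (5932 ± 2211) and 11864, 9509 and 11167 in KIN microglia (10847 ± 1209). WT neurons had 1531, 7919.8 and 2518 (3989.7 ± 3439), and KIN neurons had 3531, 2792 and 2532 (2952 ± 518). All 3 KIN microglia libraries lay above all others, replicate 2 of WT microglia lay near the astrocytes, and replicate 2 of WT neurons lay at more than 3 times the level of either other WT neuron library. In the order of group means, KIN microglia, KIN astrocytes, WT astrocytes, WT microglia, WT neurons and KIN neurons, the only neighbours whose ranges did not overlap were KIN microglia and KIN astrocytes.

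The selenocysteine tRNA followed another order, with WT astrocytes and KIN microglia at nearly the same mean at the top and both neuron groups at the bottom. Its level was 568, 642 and 527 CPM in WT astrocytes (579 ± 58.3, SD, n = 3) and 446, 548 and 491 CPM in KIN astrocytes (495 ± 51.0). It was 488, 369 and 422 CPM in WT microglia (426 ± 59.9) and 353, 689.9 and 689.9 CPM in KIN microglia (578 ± 194). WT neurons had 21.5, 354 and 99.5 CPM (158 ± 174), and KIN neurons had 145, 115 and 96.5 CPM (119 ± 24.3). In the order of means, WT astrocytes, KIN microglia, KIN astrocytes, WT microglia, WT neurons and KIN neurons, each group overlapped the next except WT microglia and WT neurons, and WT astrocytes lay above WT microglia without overlap. The lowest value, in replicate 1 of WT neurons, rested on 26 counts.

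**Figure D1:**
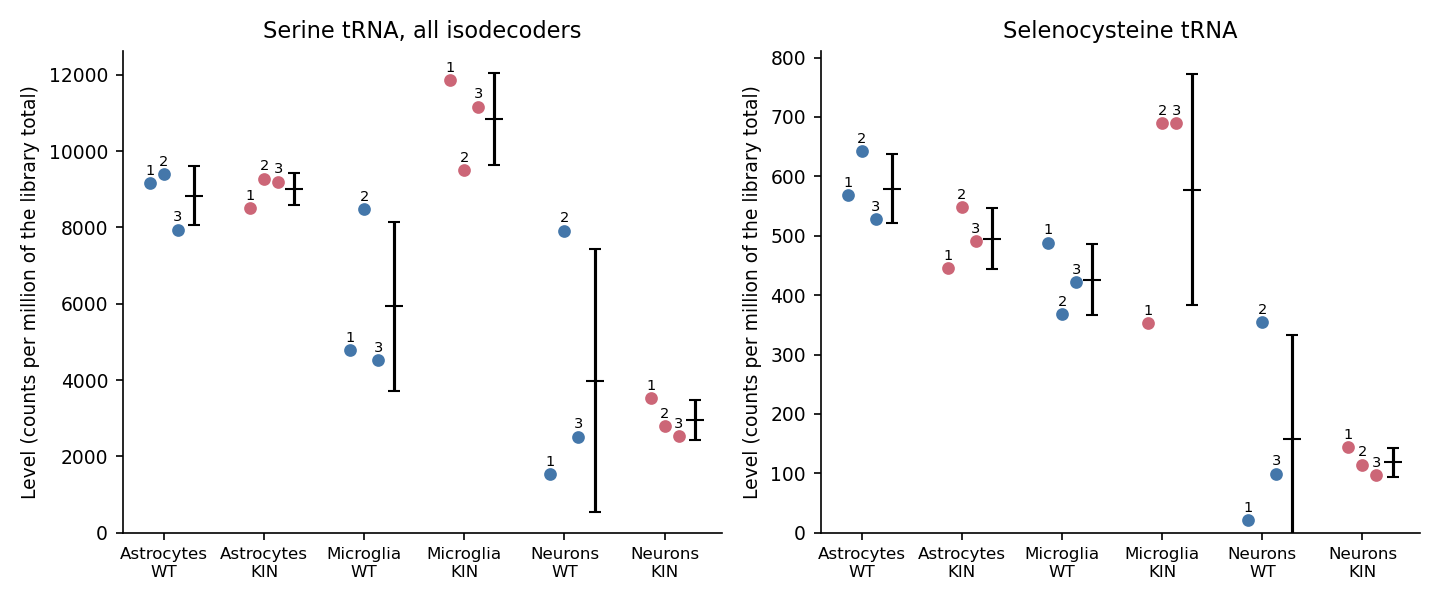
Serine tRNA (left) and selenocysteine tRNA (right) in counts-per-million of the library total, 1 numbered point per library, with the mean and SD of each group of 3. KIN microglia lie above every other library for serine tRNA, replicate 2 of WT neurons lies far above the other neuron libraries in both panels, and the SD bar of WT neurons for selenocysteine tRNA is cut at 0.

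GCT was the leading serine anticodon in every library, with 46.7% to 54.1% of serine tRNA counts. The GCT sum was 4522, 4456 and 3855 CPM in WT astrocytes, 4117, 4333 and 4492 CPM in KIN astrocytes, 2459, 4197 and 2271 CPM in WT microglia, 6397, 4776 and 5795 CPM in KIN microglia, 784, 4146 and 1254 CPM in WT neurons, and 1845, 1411 and 1371 CPM in KIN neurons. The groups overlapped in astrocytes and neurons, while all KIN microglia exceeded all WT microglia.

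AGA followed with 18.7% to 27.0% of serine tRNA. Its sum was 2122, 2273 and 1896 CPM in WT astrocytes, 1939.7, 2196 and 2076 CPM in KIN astrocytes, 1000.2, 1735 and 958 CPM in WT microglia, 2216, 1968 and 2145 CPM in KIN microglia, 414, 1845 and 602 CPM in WT neurons, and 805, 659 and 565 CPM in KIN neurons. TGA, which can draw on the same reads, held 16.7% to 19.0% and stood at 1659.8, 1787 and 1459.7 CPM in WT astrocytes, 1523, 1743 and 1668 CPM in KIN astrocytes, 819, 1602 and 817 CPM in WT microglia, 2051, 1683 and 1986 CPM in KIN microglia, 258, 1417 and 455 CPM in WT neurons, and 589, 502 and 424 CPM in KIN neurons. Both sums thus kept the layout of GCT, with all KIN microglia above all WT microglia and replicate 2 of WT neurons at glial levels.

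CGA was the least abundant of the well-measured anticodons, with 4.96% to 11.3% of serine tRNA. Its sum was 846, 876 and 731 CPM in WT astrocytes, 932, 1008 and 965 CPM in KIN astrocytes, 509, 939 and 476 CPM in WT microglia, 1192, 1078 and 1231 CPM in KIN microglia, 76.0, 507 and 206 CPM in WT neurons, and 289, 218 and 172 CPM in KIN neurons. KIN exceeded WT without overlap in both glial fractions, also as a share of serine tRNA in astrocytes, where it was 9.21% to 9.33% in WT and 10.5% to 10.9% in KIN. The GGA anticodon rested on a single gene with 226 counts over all libraries and at most 10.5 CPM in any of them, and AGA-3 had 19 counts in all and passed the filter on low counts in no comparison, so 14 of the 15 isodecoders were tested.

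Microglia gave the highest KIN to WT ratios of these tRNAs, and none of them passed the threshold. A feature was called when edgeR's quasi-likelihood test gave a Benjamini-Hochberg adjusted p of at most 0.05 over all features and the log2 fold change was at least 1 in size. None of 14 isodecoders was called against 6.35% of all 4786 features tested. An unadjusted p of at most 0.05 with edgeR was reached by 12 of the 14 and by 1110 of all features. DESeq2 called 6 of the 14 and 369 features in all. All 14 log2 fold changes (KIN over WT) were positive, from 0.68 to 1.19 with a median of 1.05, beside a median of -0.09 over all features. The highest in the GCT family was GCT-4 (1.16 ± 0.33, SE, adjusted p = 0.0587 with edgeR) and the lowest GCT-5 (0.86 ± 0.45, adjusted p = 0.285). CGA-3, the rarest CGA isodecoder, had the highest value of all at 1.19 ± 0.36 (adjusted p = 0.0749 with edgeR), with 26.8, 21.0 and 19.9 CPM in WT and 20, 48.9 and 63.1 CPM in KIN, which overlapped. The selenocysteine isodecoder had the lowest, 0.68 ± 0.25 (adjusted p = 0.126 with edgeR).

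Of the 6 anticodon sums none was called either (background 6.83%). An unadjusted p of at most 0.05 with edgeR was reached by 5 of them and by 1072 of all 4659 features. DESeq2 called 2 of them and 349 features in all. GCT stood at a log2 fold change of 1.14 ± 0.34 (adjusted p = 0.0636), CGA at 1.06 ± 0.34 (0.0813), TGA at 1.02 ± 0.35 (0.101), AGA at 0.98 ± 0.32 (0.0873), GGA at 0.89 ± 0.48 (0.306) and selenocysteine TCA at 0.69 ± 0.25 (0.110). Summed over all serine genes, so that reads shared between AGA and TGA no longer mattered, the log2 fold change was 1.09 ± 0.34 (adjusted p = 0.0706 with edgeR, background 6.89%). Within the most abundant isodecoders the layout was the same: GCT-3 had 1036, 1846 and 929 CPM in WT and 2831, 2074 and 2519 CPM in KIN (1.15 ± 0.35, adjusted p = 0.0765), and AGA-2 had 821, 1407 and 794 CPM in WT and 1795, 1615 and 1751 CPM in KIN (0.97 ± 0.32, adjusted p = 0.0956). Neither pair of groups overlapped.

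**Figure D2:**
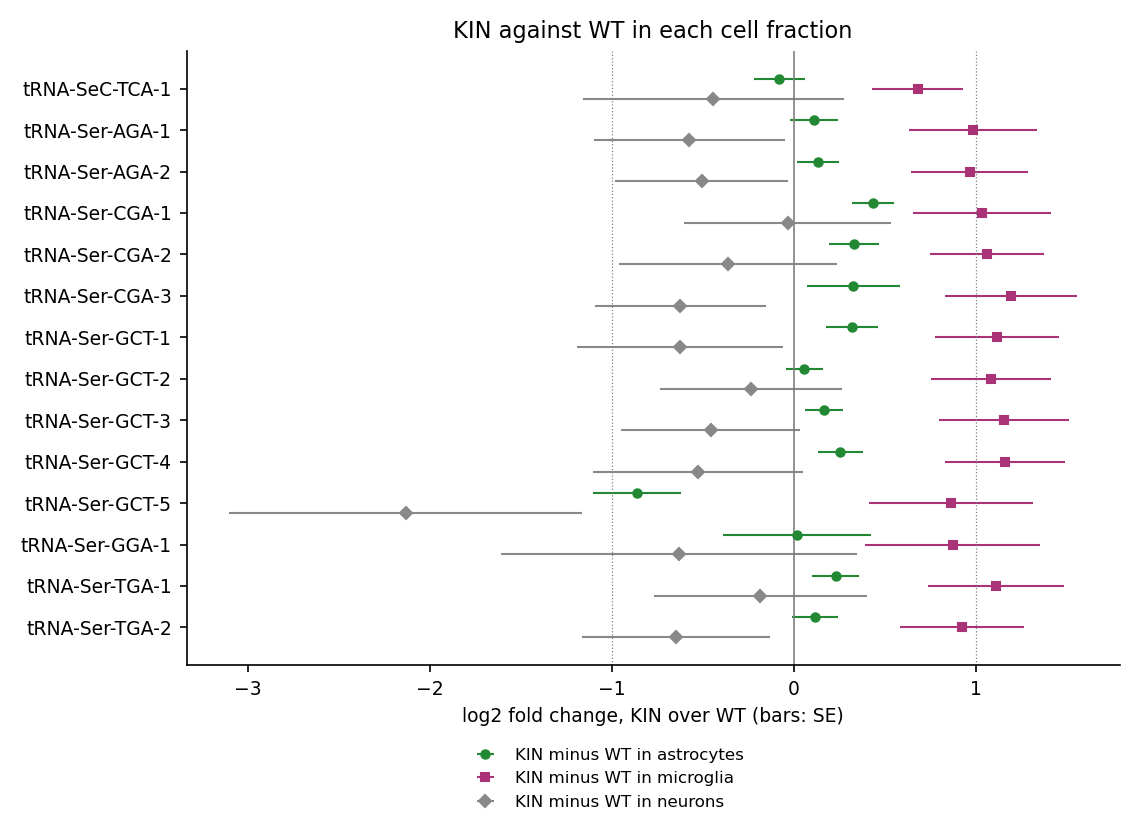
Log2 fold change of KIN over WT for the 14 tested isodecoders in astrocytes, microglia and neurons, with SE bars (edgeR, 3 libraries a group). The microglia points lie between 0.68 and 1.19, most astrocyte points lie just above 0 with GCT-5 at -0.86, and the neuron points lie below 0 with wide bars.

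The microglial calls turned on replicate 2 of WT microglia. Without it 10 of the 14 isodecoders and 4 of the 6 anticodons were called higher in KIN, the median log2 fold change was 1.56 and 788 features were called in all against 304 with every library. Without KIN replicate 1 a single isodecoder was called, among 344 features called in all, and without any of the other 4 libraries none was. Replicate 2 also differed from the other WT microglia in other measures: it had 17884 detected features against 27713 and 29541 (KIN 13941 to 20324), a summed miR-9-5p and miR-9-3p level of 82.3 CPM against 211 and 245 CPM (KIN 59.1 to 68.6 CPM), and a summed level of the 3 neuronal miRNAs of 60.7 CPM against 159 and 155 CPM (KIN 47.0 to 55.1 CPM). No miRNA of these lists was at 0 in a microglia library, and their part in the result was not tested.

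**Figure D3:**
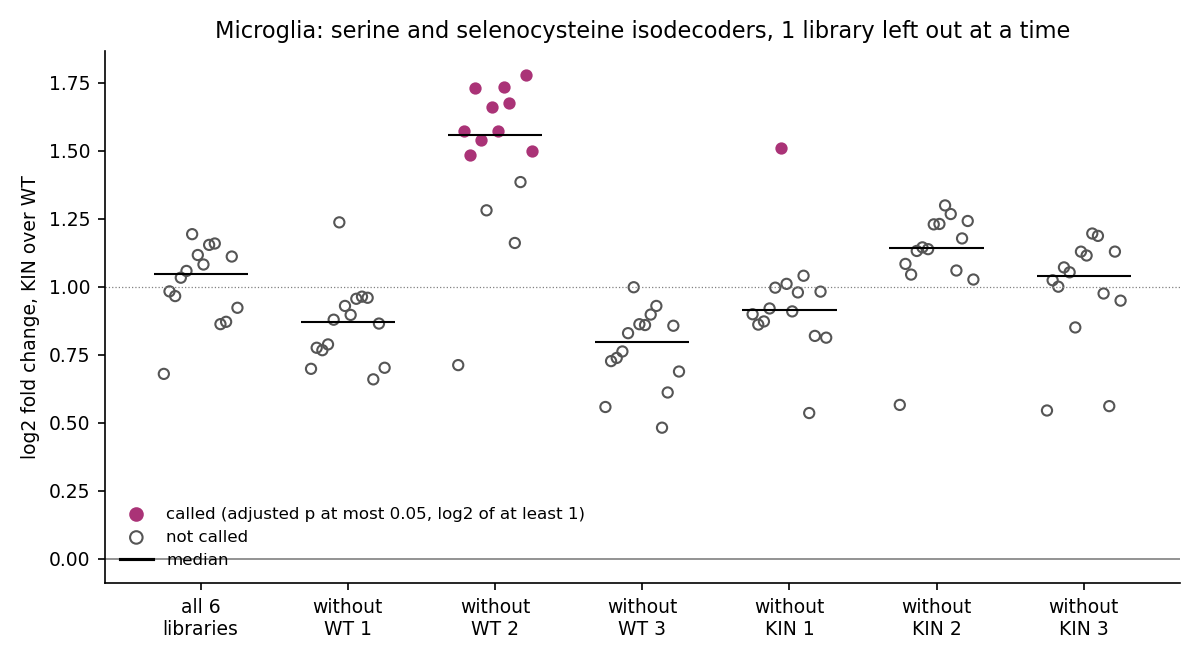
Log2 fold change of KIN over WT in microglia for the 14 isodecoders with all 6 libraries and with each left out, where filled points were called and the line is the median. The median is 1.05 with all libraries, 1.56 without WT replicate 2 and 0.80 to 1.14 without any other.

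The rest of the cytosolic tRNAs lay close by in microglia. Leucine tRNA, the other family with a long variable arm, had a median log2 fold change of 0.82 over 16 isodecoders, all positive and none called, and the other cytosolic tRNAs had a median of 0.91 over 162 isodecoders, 158 of them positive and 5 called. Cytosolic tRNA as a whole made up 9.37%, 11.3% and 8.53% of WT and 14.0% to 16.6% of KIN counts. Within tRNA, the serine share was 5.11%, 7.49% and 5.30% in WT and 8.47%, 6.06% and 6.74% in KIN microglia, which overlapped (difference 1.12 percentage points, p = 0.4, exact two-sided permutation test, adjusted p = 0.6 over the 3 fractions). The selenocysteine share of tRNA was 0.521%, 0.326% and 0.494% in WT and 0.252%, 0.439% and 0.416% in KIN and overlapped as well.

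In astrocytes the serine sum did not pass the test, while CGA-1 was higher and GCT-5 lower in KIN by less than the fold required. These were the 2 isodecoders of 14 with an adjusted p of at most 0.05 with edgeR, beside 632 of all 5541 features. The serine sum had a log2 fold change of 0.19 ± 0.10 (adjusted p = 0.224 with edgeR, background 8.28%), and with scaling factors taken from mature miRNA alone it turned to -0.57. CGA-1 had 493, 477 and 419.6 CPM in WT and 545, 589 and 563 CPM in KIN, without overlap, a log2 fold change of 0.44 ± 0.12 and an adjusted p of 0.0414 with edgeR, which turned to -0.32 under the miRNA scaling. GCT-5, the rarest GCT isodecoder, had 25.8, 27.6 and 24.6 CPM in WT and 11.3, 13.9 and 13.4 CPM in KIN, also without overlap. Its log2 fold change was -0.86 ± 0.24 with an adjusted p of 0.0481 with edgeR, and it stayed negative under every scaling tried, at -0.78 to -1.59. It rested on 81, 110 and 81 counts in WT and 39, 50 and 50 counts in KIN. Leaving out 1 library raised the adjusted p to 0.0879 to 0.152 for CGA-1 and 0.108 to 0.132 for GCT-5, except without WT replicate 2, where edgeR gave 0.00588 and 0.0222.

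None of the 14 isodecoders was called in astrocytes (edgeR, background 8.23% of 5541 features). At an unadjusted p of at most 0.05 with edgeR were 4 of them, beside 1903 of all 5541 features, and DESeq2 called 0. Positive were 12 of 14 log2 fold changes, with a median of 0.15 beside -0.20 over all features. None of the 6 anticodons was called (background 8.18%), and DESeq2 called 0. CGA alone, at 0.40 ± 0.12, had an unadjusted p of at most 0.05 with edgeR, beside 1848 of all 5414 features. The selenocysteine sum had a log2 fold change of -0.07 ± 0.14 (adjusted p = 0.768 with edgeR). Leucine tRNA had a median of 0.17 over 16 isodecoders and the other cytosolic tRNAs 0.27 over 162, of which 9 were called higher and 2 lower.

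As shares of cytosolic tRNA, both sums were lower in KIN astrocytes without overlap. Serine tRNA made up 8.14%, 8.46% and 7.79% in WT and 7.17%, 7.47% and 7.59% in KIN, a difference of -0.72 percentage points with p = 0.1 (exact two-sided permutation test, adjusted p = 0.3), the lowest value possible with 3 libraries a group. Selenocysteine tRNA made up 0.505%, 0.578% and 0.517% in WT and 0.376%, 0.440% and 0.405% in KIN. Over other denominators the lower serine share did not hold, with a difference of -0.0290 percentage points over serine and leucine tRNA (p = 0.9, exact permutation test) and 0.0169 over all library counts (p = 0.8, exact permutation test). Cytosolic tRNA as a whole made up 10.2% to 11.2% of counts in WT and 11.9% to 12.4% in KIN astrocytes. Astrocyte libraries of the genotypes also differed in detected features (27657 to 32839 in WT, 21874 to 23544 in KIN), in the summed oligodendrocyte miRNAs (830 to 1496 CPM and 1510 to 2148 CPM) and in the 3 microglial miRNAs (10.2 to 12.6 CPM and 25 to 48.5 CPM). All members of both lists were detected in every astrocyte library, and their part in the result was not tested.

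Neurons gave no call for any feature, and the direction of the serine tRNAs depended on 1 library. With all 6 libraries the 14 log2 fold changes of KIN over WT lay between -2.13 (GCT-5) and -0.03 (CGA-1) with a median of -0.52, and 0 isodecoders and 0 anticodons were called with edgeR (background 0% of 4381 features and 0% of 4262). None of the 14 had an unadjusted p of at most 0.05, which 210 features did, and DESeq2 called 0. The serine sum had -0.52 ± 0.49 and an adjusted p of 0.871 with edgeR (background 0%). GCT-5 had 2.48, 39.4 and 1.96 CPM in WT and 3.84, 4.53 and 2.06 CPM in KIN, so its low value came from replicate 2. Without WT replicate 2 the median over the 13 isodecoders tested was 0.60, the serine sum stood at 0.54 and 3 features were called, none of them a member. The serine share of tRNA was 5.20%, 7.49% and 5.55% in WT and 6.00%, 5.52% and 5.57% in KIN (difference -0.38 percentage points, p = 0.9, exact two-sided permutation test, adjusted p = 0.9), with the same library highest. The selenocysteine share was 0.0729%, 0.335% and 0.219% in WT and overlapped with KIN at 0.246%, 0.227% and 0.212%.

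The test of the difference between the KIN effect in microglia and that in astrocytes called none of the 14 isodecoders (edgeR, background 0.377% of 6899 features) and none of the 6 anticodons (background 0.591%). DESeq2 called 1 isodecoder, among 131 features called in all, and 0 anticodons, among 129. With edgeR, 8 isodecoders (695 of all 6899 features) and 4 anticodons (672 of all 6769) had an unadjusted p of at most 0.05. All 14 differences were positive, from 0.59 to 1.72 with a median of 0.86 on the log2 scale, and the highest was GCT-5 (1.72 ± 0.52, adjusted p = 0.158), whose log2 fold change was negative in astrocytes and positive in microglia. Without replicate 2 of WT microglia, 11 isodecoders and 4 anticodons were called. In that fit of isodecoders 278 features were called in all, against 26 with every library.

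Among WT fractions, which share their groups, GCT-5 was lower in microglia than in astrocytes, and CGA-1 and GCT-2 were lower in neurons than in either glial fraction, though not with scaling factors from mature miRNA. WT microglia had 6.91, 6.62 and 3.00 CPM of GCT-5 against 25.8, 27.6 and 24.6 CPM in WT astrocytes, without overlap, a log2 fold change of -2.14 ± 0.42 (adjusted p = 0.00200 with edgeR). It was called under every scaling tried and without any 1 library, and it was the only isodecoder of 14 called there (background 32.7% of 6243 features). None of the 6 anticodons was called (background 32.7%). With edgeR 0 of them had an unadjusted p of at most 0.05, beside 2820 of all 6116 features, and DESeq2 called 0. Without replicate 2 of WT microglia 7 isodecoders were called, with 2025 features called in all against 2039 with every library.

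CGA-1 had 28.9, 218 and 101 CPM in WT neurons, against 420 to 493 CPM in WT astrocytes and 267 to 593 CPM in WT microglia. Its log2 fold change was -2.12 ± 0.58 against astrocytes (adjusted p = 0.0210 with edgeR) and -2.0 ± 0.67 against microglia (adjusted p = 0.0408). GCT-2 had 139, 744 and 297 CPM in WT neurons, 1152, 1101 and 1018 CPM in WT astrocytes and 1012, 1657 and 961 CPM in WT microglia. It stood at -1.60 ± 0.51 against astrocytes (adjusted p = 0.0388 with edgeR) and at -1.88 ± 0.58 against microglia (adjusted p = 0.0297). Neither isodecoder overlapped between neurons and glia, yet with scaling factors from mature miRNA the log2 fold changes of GCT-2 were 0.51 against astrocytes and 0.01 against microglia, and that of CGA-1 was -0.07 against microglia.

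These were the 2 isodecoders of 14 called in WT neurons against WT astrocytes (background 32.1% of 5757 features) and against WT microglia (background 30.1% of 5010 features). Among anticodons, CGA was called against astrocytes at -1.87 ± 0.60 (adjusted p = 0.0420 with edgeR, background 32%), and none was called against microglia (background 30.2%). Against microglia 2 had an unadjusted p of at most 0.05 with edgeR, beside 2063 of all 4887 features, and DESeq2 called 2. The selenocysteine isodecoder had -2.0 ± 0.75 against astrocytes (adjusted p = 0.0623 with edgeR). Without replicate 2 of WT neurons, 12 isodecoders were called lower than in astrocytes (1826 features called in all) and 11 lower than in microglia (1630 in all). Leaving out any other library left 0 or 1. These counts are from the fit without a replicate block, and the study took the fractions of a mouse from the same brain. With the replicate number, which the labels do not tie to a brain, as a block, 12 isodecoders and 5 anticodons were called against astrocytes and 5 and 4 against microglia, all lower in neurons. DESeq2 called 6 isodecoders and 4 anticodons against astrocytes, where it called 1639 and 1653 features in all. Against microglia it called 3 and 2, where it called 1315 and 1314 features in all. With scaling factors from mature miRNA the calls went the other way. There 2 isodecoders were called higher in neurons than in astrocytes and 8 isodecoders and 1 anticodon higher than in microglia, with none lower. Not every isodecoder turned, as CGA-1 stayed slightly negative against microglia. For the block and the miRNA scaling the number of features called in all is not given, so these counts stand without a background.

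**Figure D4:**
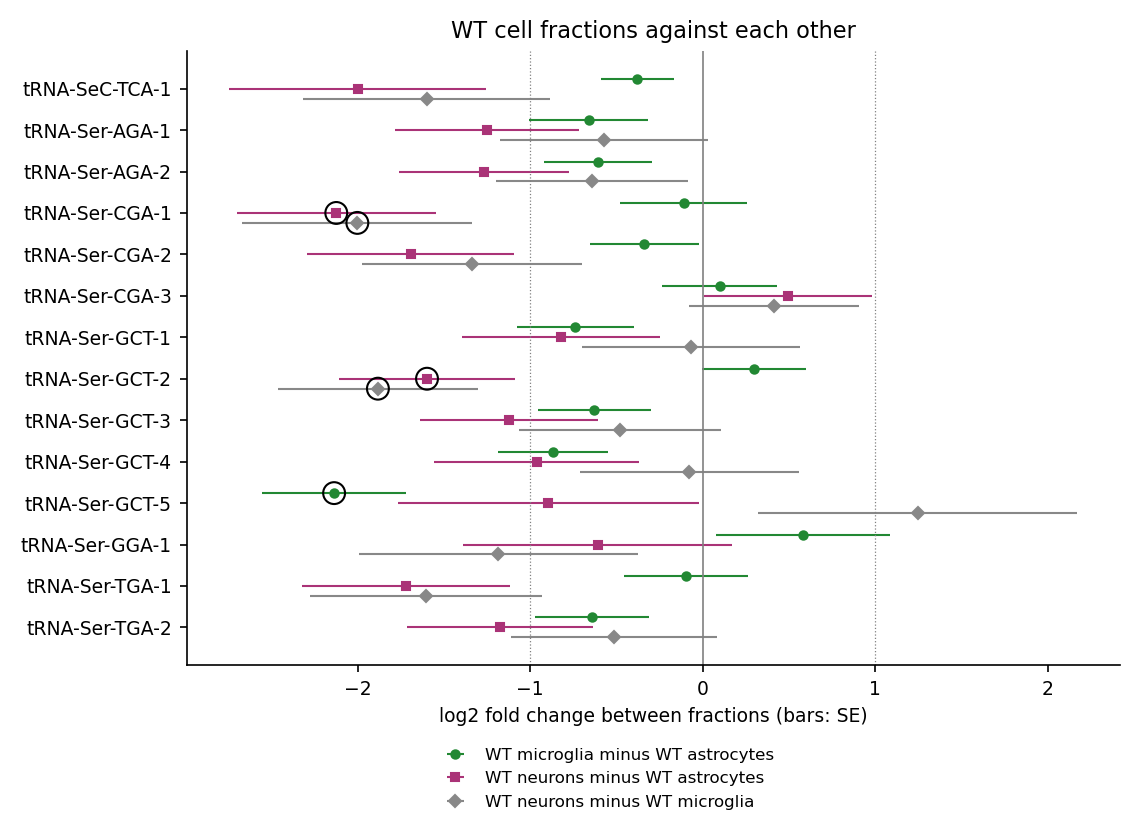
Log2 fold change between WT fractions for the 14 tested isodecoders with SE bars (edgeR, 3 libraries a group), circled where called. GCT-5 is called in microglia over astrocytes, and CGA-1 and GCT-2 in neurons over both glial fractions, where their lower level did not hold with scaling factors from mature miRNA.

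The proportions of the isodecoders within an anticodon do not depend on the scaling of the library, and that of GCT-2 set microglia of both genotypes apart from the other fractions. GCT-2 made up 23.4% to 26.4% of GCT counts in the 6 astrocyte libraries, 38.7% to 42.3% in the 6 microglia libraries and 17.7% to 23.7% in the 6 neuron libraries, a pattern chosen after its values were seen and given with no test. Its count divided by that of GCT-3, the most abundant GCT isodecoder, was 0.447 to 0.522 in astrocytes, 0.891 to 1.03 in microglia and 0.315 to 0.457 in neurons. Replicate 2 of WT microglia, with a ratio of 0.898, and replicate 2 of WT neurons, with 0.342, lay within the ranges of their own fractions in this measure. GCT-2 and GCT-3 could not be matched to a sequence, and GCT isodecoders divide the reads that fit several of them. The part of this division in the proportions was not tested.

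GCT-5 fell outside that layout, with a difference between genotypes in astrocytes. It held 0.570%, 0.620% and 0.638% of GCT counts in WT astrocytes and 0.275%, 0.322% and 0.299% in KIN astrocytes, 0.132% to 0.281% in microglia of both genotypes, and 0.949% in replicate 2 of WT neurons against 0.150% to 0.321% in the other neuron libraries.

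**Figure D5:**
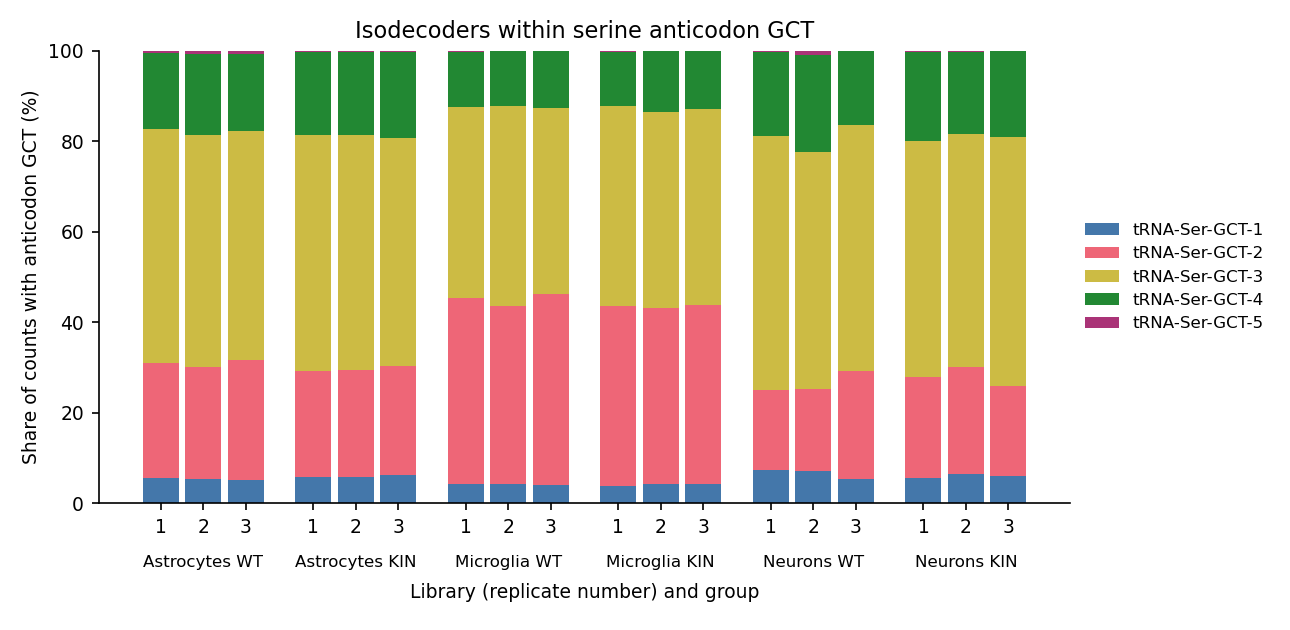
Share of each GCT isodecoder in GCT counts, in percent, for each of the 18 libraries. GCT-2 holds 38.7% to 42.3% in microglia and at most 26.4% elsewhere, with 39.5% to 42.3% in WT and 38.7% to 39.7% in KIN microglia.

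Other anticodons behaved unevenly. TGA-1 made up 33.0% to 35.8% of TGA counts in astrocytes and 40.4% to 45.8% in microglia, with WT at most 43.2% and KIN at least 44.1% in microglia, while in neurons it ranged from 15.4% to 34.8%. CGA-3 made up 1.68% to 5.27% of CGA counts in glia and 7.67% to 21.7% in neurons. Its level, 16.5, 57.8 and 28.1 CPM in WT neurons and 17.6 to 26.4 CPM in WT astrocytes, overlapped between those fractions (log2 fold change 0.49 ± 0.49, adjusted p = 0.432 with edgeR). AGA-1 stayed at 16.7% to 19.6% of AGA counts in all libraries. Genes with the same sequence received nearly equal counts, 16.5% to 16.7% for each of the 6 AGA-2 genes and 33.0% to 33.5% for each of the 3 GCT-4 genes, so values of single genes within an isodecoder carry no information of their own.

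The mitochondrial serine tRNAs mt-Ts1 and mt-Ts2, which are encoded on the mitochondrial chromosome and charged by the enzyme Sars2, were compared with the cytosolic ones. In WT microglia both were lower than in WT astrocytes, by a log2 fold change of -2.50 ± 0.22 (adjusted p = 6.54e-06 with edgeR) and -2.12 ± 0.24 (adjusted p = 3.38e-05), while the median of the serine and selenocysteine isodecoders there was -0.49. Between KIN and WT microglia they had -0.09 (adjusted p = 0.886) and 0.73 (adjusted p = 0.109).

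Transcripts of the enzymes and targets around these tRNAs were too sparse for most tests in these small RNA libraries, where counts of coding transcripts are counts of short fragments. Of 37 listed genes, comprising 2 for serylation, 12 for selenocysteine synthesis and insertion and 23 selenoproteins, astrocytes allowed a test of 7, microglia of 5 and neurons of 9, and edgeR called none in any fraction (backgrounds 8.88%, 5.58% and 0%). In astrocytes 2 of the 7 had an unadjusted p of at most 0.05 with edgeR, beside 2061 of all 6591 features. Dio2, a deiodinase that activates thyroid hormone, stood at -2.05 ± 0.71 (adjusted p = 0.0749), on 5, 11 and 4 counts in WT and 2, 1 and 1 in KIN. Selenop, the selenium carrier of the blood, stood at -1.10 ± 0.38 (adjusted p = 0.0748), on 35, 26 and 23 counts in WT and 13, 7 and 15 in KIN. In microglia 1 of the 5 had such a p, beside 1283 of all 5449 features. It was Secisbp2l, a relative of the protein that binds the selenocysteine insertion element, at -1.60 ± 0.53 (adjusted p = 0.0969). It rested on 14, 11 and 9 counts in WT and 1, 4 and 5 in KIN. In neurons none of the 9 had such a p, beside 241 of all 5421 features. DESeq2 was not run on this list.

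The isodecoders of other amino acids whose level over the 18 libraries was most like that of the selenocysteine tRNA were Glu-TTC-1 (Pearson r = 0.97), Glu-TTC-2 (0.97), iMet-CAT-1 (0.96), Cys-GCA-3 (0.95) and Cys-GCA-2 (0.94), beside a median r of 0.69 over the 168 compared. Most like the serine sum were Gln-TTG-1 (0.99), Gln-CTG-4 (0.98), Gln-CTG-2 (0.98), Pro-TGG-2 (0.98) and Pro-CGG-1 (0.98), beside a median of 0.73. These are correlations of log2 CPM across libraries that share their totals and the tRNA share of each library, and they carry no p.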

How the data were processed

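Small RNA libraries (smallRNA-Seq Kit, GenXPro) of 18 samples were analysed. The authors deposited raw counts, whole numbers of reads for each feature, made with cutadapt 4.6, FastQC 0.11.9, MultiQC 1.23, Bowtie2 2.4.4 in local mode on successive references, and HTSeq 2.0.2 without strand, on build mm39. A read fitting several tRNA genes was counted at a single place, so isodecoders divide shared reads. Collapsing by molecular identifiers was not stated for these libraries, so counts are taken as reads. The SE and p-values of the fits cover the spread between libraries as well as counting error. The authors' 36 columns of normalized values and their DESeq2 fold changes and p-values were not used. No row lacked a feature name.

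Gene copies were summed before filtering (at least 5 counts in at least 2 libraries) and tested with edgeR 4.0.16 (R 4.3.3, limma 3.58.1, TMM factors, quasi-likelihood test) on the libraries compared. The thresholds for a call (0.05 for the adjusted p, 1 for the size of the log2 fold change) follow the study. Levels are CPM of the library total. TMM factors shifted log2 ratios of KIN over WT from these by 0.15 in astrocytes, 0.26 in microglia and -0.02 in neurons. Scripts were tested on simulated data. Alternatives were DESeq2 1.42.0, other scalings, no filter, 1 fit of all libraries, the replicate number as a block and leaving out each library. Named were all anticodon sums, and isodecoders that were called, most abundant, or at either end of their anticodon in glia, with the 5 most similar isodecoders. The members and lists were chosen with earlier results of these data known. The serine sum and the GCT-2 ratio were added after values were seen.

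Sequences are from a search of GRCm39, the same assembly as mm39, for genes with tRNA structure and the listed anticodons, which found 21 of the 22 genes of the lengths searched. They held 13 distinct sequences, of which 5 had a copy number that fitted a single isodecoder.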

Additional observations from a re-analysis of the deposited data

How the results depend on the processing

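Called counts that moved are given by comparison, and the cause was not tested. In isodecoder fits without 1 library, the features called in all also moved. They were 4 to 788 for KIN against WT in microglia and 0 to 278 for the difference between the KIN effects. WT microglia against WT astrocytes had 1440 to 2073, WT neurons against WT astrocytes 1011 to 1826 and WT neurons against WT microglia 927 to 1630. Beyond these and DESeq2 no such total is given, so the other member counts stand without a background. For KIN against WT in astrocytes, 1 isodecoder was called with library totals and 1 with TMM factors from mature miRNA, against 0. In microglia, DESeq2 called 6 isodecoders and 2 anticodons and the fit with no filter 7 and 1, against 0 and 0, and leaving out 1 library gave 0 to 10 isodecoders and 0 to 4 anticodons. For the difference between the KIN effects, DESeq2 called 1 isodecoder, and leaving out 1 library gave 0 to 11 isodecoders and 0 to 4 anticodons. For WT microglia against WT astrocytes, library totals gave 2 isodecoders against 1, and leaving out 1 library gave 1 to 7 isodecoders and 0 to 2 anticodons. For WT neurons against WT astrocytes, with 2 isodecoders and 1 anticodon called, DESeq2 size factors gave 6 and 4, DESeq2 itself 6 and 4, no filter 10 and 5, 1 fit of 18 libraries 10 and 5, gene copies taken one by one 1 isodecoder, miRNA factors 0 anticodons and 2 isodecoders, both higher in neurons, and leaving out 1 library 0 to 12 and 0 to 5. For WT neurons against WT microglia, with 2 isodecoders and 0 anticodons called, library totals gave 1 isodecoder, miRNA factors 8 isodecoders and 1 anticodon, all higher in neurons, DESeq2 size factors and DESeq2 2 anticodons each, no filter 5 and 2, 1 fit of 18 libraries 5 and 2, and leaving out 1 library 0 to 11 and 0 to 6.

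With the replicate number as a block, WT neurons against WT astrocytes gave 12 isodecoders and 5 anticodons, and WT neurons against WT microglia 5 and 4. The numbers were not treated as pairing. Deviations of same-numbered KIN and WT libraries correlated at -0.17 to 0.11, those of KIN astrocytes and KIN microglia at -0.16 to -0.01 and those of WT fractions at 0.02 to 0.31. Replicates 1 and 2 of WT astrocytes correlated best with the same number in WT microglia and WT neurons, and those of WT microglia with the same number in WT neurons. Replicate 3 did so only from WT astrocytes to WT neurons. Whether a number marks a brain is thus not settled by these values. The block changed no count of calls in the other comparisons. Under the block the selenocysteine sum of neurons (KIN over WT) turned from -0.45 to 0.23.

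Directions also turned elsewhere. The serine share difference became 0.0169 percentage points in astrocytes over all library counts and 2.08 in neurons over serine and leucine tRNA, and leaving out 1 library gave -0.820 to 0.324 percentage points in neurons. The selenocysteine sum of astrocytes, -0.07 as reported, was 0.0250 with DESeq2 size factors and 0.0249 with DESeq2, 0.15 with no filter, 0.0415 in 1 fit of 18 libraries and -0.19 to 0.0572 without 1 library. With miRNA factors, KIN over WT in astrocytes was -0.57 for the serine sum and -0.32 for CGA-1, WT neurons against WT astrocytes 0.0483 for selenocysteine, 0.35 for CGA and 0.51 for GCT-2, and WT neurons against WT microglia 0.13 for selenocysteine and 0.0110 for GCT-2. Leaving out 1 library, KIN over WT in neurons ranged from -0.97 to 0.96 for selenocysteine and from -0.85 to 0.54 for the serine sum, both highest without WT replicate 2. At 3 libraries a group and 26 selenocysteine counts in the shallowest library, differences in neurons were the least precise.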
